A study of Mus musculus with 4 samples.

Results

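Protein kinase A (PKA) and the EPAC proteins are the main intracellular effectors of cyclic AMP, and the PKA inhibitors act on the free catalytic subunit. The 10 genes described here are Prkaca and Prkacb, Prkar1a, Prkar1b, Prkar2a and Prkar2b, Pkia and Pkib, and Rapgef3 and Rapgef4. They were chosen by name, through their Ensembl identifiers, from 25044 entries in the tables, and all 10 passed the filter on low values (a mean of 0.1 FPKM or more). RNA was sequenced from tissue of the parasubthalamic nucleus, a small glutamatergic cell group at the edge of the posterior lateral hypothalamus, taken from naive C57BL/6 mice. The 4 libraries, replicates 1 to 4, form 1 group with no genetic or drug manipulation, no stressed animal was sequenced, and no age or sex is stated for the mice. Comparisons are therefore between genes within a library, and between libraries. The unit was taken to be FPKM, which corrects fragment numbers for the length of the transcript and the size of the library, so that levels of different genes can be set side by side.

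The series concerns the peptide PACAP and its receptor PAC1R, which raises cyclic AMP through a stimulatory G protein. In the resting PKA holoenzyme a dimer of regulatory subunits holds catalytic subunits inactive, and cyclic AMP binds the regulatory subunits and frees the catalytic ones to phosphorylate ion channels, receptors and the transcription factor CREB. Type I holoenzymes are largely cytosolic, whereas type II holoenzymes are mostly tethered by A-kinase anchoring proteins. The small inhibitor proteins of the Pki family block the free catalytic subunit, and EPAC proteins bind cyclic AMP without any kinase and switch on the small GTPase RAP.

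Cyclic AMP also feeds back on transcription through the cAMP response element, the 8 letters TGACGTCA, so these letters were searched in the promoter windows of the genes described here (RefSeq, GRCm38.p6, 250 bases before to 50 after each start). The table held 23 windows for 9 of the 10 genes. The full element, which reads the same on both strands, occurred in 2 windows, both of Prkar1a, against 1.79% of all 32851 windows. Both windows hold the same copy, which lies 49 bases before one annotated start of Prkar1a and after another. It is shown, with the element in capitals, as the only full element found, on the plus strand of chr11:109650889-109650918.
Prkar1a: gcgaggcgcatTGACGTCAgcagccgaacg
The shorter core TGACG, searched on both strands and contained in the full element, occurred in 8 of the 23 windows, at least one each of Prkaca, Prkacb, Prkar1a, Prkar1b, Prkar2a and Rapgef3, against 20.8% of all windows. These matches describe the letters only.

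Before the levels, the libraries themselves are described. Their totals lay between 428612 and 442836 FPKM, and the spacing of low values put the depth of the shallowest library, replicate 3, at 91.3% of the deepest. All 8 genes of a list of parasubthalamic markers and all 10 neuronal markers were at 1 FPKM or more in every library. Each library also carried something of its own. Replicate 1 held 25.9 FPKM in all over a list of caudal hindbrain and spinal cord genes against at most 0.361 elsewhere. Replicate 2 held more of the medial hypothalamic, dopaminergic and pituitary lists. The dopaminergic list was abundant in every library, however, with sums of 530, 967, 529 and 504 FPKM in replicates 1 to 4. All 10 of its genes were at 1 FPKM or more in each library. Pomc is in both the medial hypothalamic and the pituitary list, and its 30.1 FPKM in replicate 2 made up most of the pituitary sum of 44.3 FPKM. Replicate 4 had the highest lateral hypothalamic sum, 773 FPKM against 184 to 542. Its sum of choroid plexus and ependymal markers was also the highest, 66.3 FPKM against 16.3 to 16.5. That excess came mostly from Ttr, at 49.7 FPKM against 0.587 to 1.99 in the others. Replicate 3 held 499 FPKM over a thalamic list against 181 to 264 in the others. Its oligodendrocyte sum was 8571 FPKM against 5923 to 7961, and its parasubthalamic sum of 307 FPKM was the lowest, against 343 to 482. The thalamic and parasubthalamic lists share Calb2, at 137 FPKM in replicate 3 against 153 to 226 in the others, so their sums are not separate.

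The catalytic subunits were both abundant, and Prkacb stood above Prkaca. Prkaca (ENSMUSG00000005469, GRCm38 chromosome 8, 83972993 to 83996443, plus strand) encodes the catalytic alpha subunit, the form present in nearly all cells. Its level in replicates 1 to 4 was 111.4, 126.6, 111.2 and 124.0 FPKM, a mean of 118 ± 8.15 (SD, n = 4). Prkacb (ENSMUSG00000005034, chromosome 3, 146729574 to 146812990, minus strand) encodes the catalytic beta subunit, which is enriched in brain. It lay at 156.9, 158.6, 122.2 and 160.8 FPKM in the same order, a mean of 150 ± 18.3 (SD, n = 4). Replicate 3 was low for Prkacb, at a level that Prkaca reached in replicates 2 and 4, while the other libraries lay within 4 FPKM of each other. Within libraries Prkacb was above Prkaca in 4 of 4, by 1.26-fold, a log2 difference of 0.33 (SE 0.08, limma adjusted p = 0.0110). The log2 difference was 0.14 in replicate 3 and between 0.32 and 0.49 in the others, and without replicate 4 it was 0.32 and missed the threshold of 0.05 (limma adjusted p = 0.0507). Prkaca supplied 44.3% ± 2.55 (SD, n = 4) of the summed catalytic FPKM. On values multiplied back by transcript length the log2 difference was 1.27 (limma adjusted p = 2.80e-05) and the share 29.4%.

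Prkaca itself served as the reference for the whole set. It stood at percentile 97.2 of the 17630 entries tested, and most genes of any kind lie below a gene of that level: 96.6% of all entries passed as lower and 2.32% as higher. With nearly every entry passing, the adjustment for multiple testing changes p-values near the threshold very little. Among the other 9 members, 3 were higher than Prkaca and 6 were lower, each in 4 of 4 libraries.

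**Figure D1:**
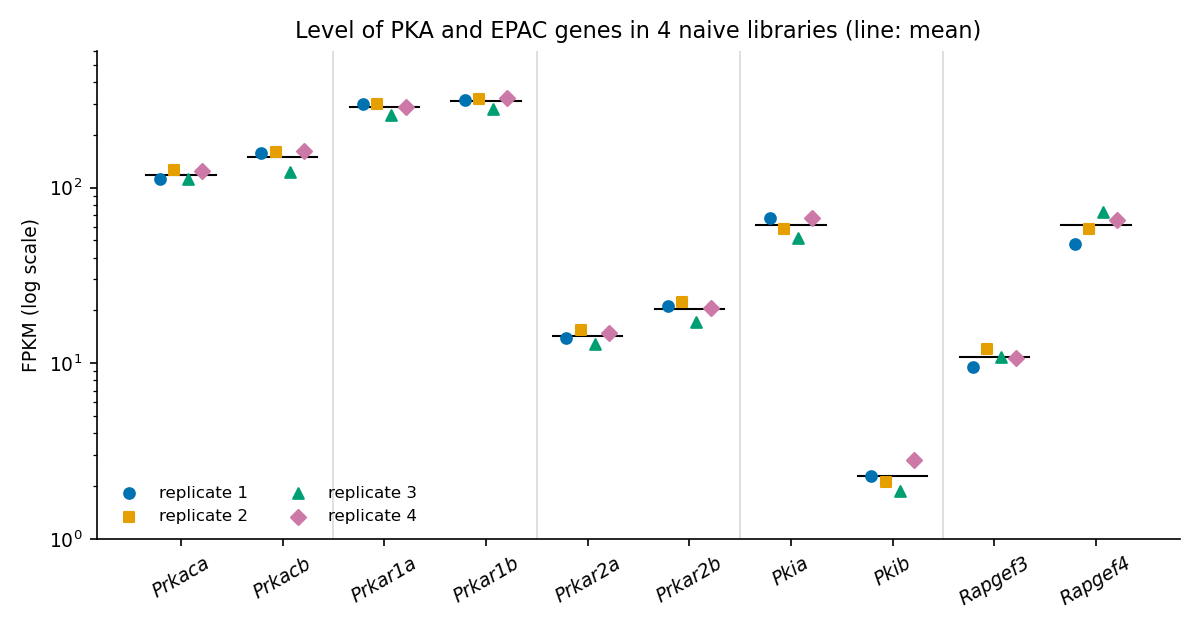
Level of each PKA and EPAC gene (x axis) in FPKM on a log scale (y axis), with 1 point per library and a line at the mean of the 4 libraries. Prkar1a and Prkar1b sit highest, above 250 FPKM in every library, and Pkib lowest, between 1.88 and 2.81 FPKM.

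The type I regulatory subunits were the most abundant of all 10 genes. Prkar1a (ENSMUSG00000020612, chromosome 11, 109649405 to 109669656, plus strand), the widely expressed alpha form, lay at 299.6, 299.1, 258.4 and 285.9 FPKM in replicates 1 to 4. Prkar1b (ENSMUSG00000025855, chromosome 5, 139017306 to 139150001, minus strand), the form largely restricted to the nervous system, lay at 316.6, 318.8, 278.6 and 322.1 FPKM. Replicate 3 was the lowest for both, and their ranges overlap. Prkar1a was 2.41-fold above Prkaca, at a log2 difference of 1.27 (SE 0.07, limma adjusted p = 1.84e-05), and Prkar1b was 2.61-fold above, at 1.38 (SE 0.06, limma adjusted p = 9.57e-06). Without length correction the Prkar1a difference was 1.90.

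Between themselves the type I genes differed little. Prkar1a was below Prkar1b in 4 of 4 libraries but only by 1.08-fold, a log2 difference of -0.11 (SE 0.05) that did not pass (limma adjusted p = 0.0994), whereas 99% of all entries passed as lower than Prkar1b and 0.618% as higher. The difference did pass, at -0.11, when each gene's own variance was used alone (limma adjusted p = 0.0118), and it turned to 0.30 (limma adjusted p = 0.00282) when values were multiplied back by transcript length. The length used here was that of the longest annotated transcript, and the length behind the deposited values is not known. Values multiplied back in this way therefore follow fragment numbers only roughly. Fragment numbers rise with length, so this change of sign does not rank the messages. On length-corrected values Prkar1b was the higher in 4 of 4 libraries, and whether the difference passed depended on the processing.

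The type II regulatory subunits were far scarcer. Prkar2b (ENSMUSG00000002997, chromosome 12, 31958476 to 32061296, minus strand), the beta form known as the main type II subunit of brain and fat, lay at 21.2, 22.3, 17.1 and 20.6 FPKM. Prkar2a (ENSMUSG00000032601, chromosome 9, 108689314 to 108750436, plus strand), the alpha form found in most tissues, lay at 13.9, 15.4, 13.0 and 15.0 FPKM. The highest Prkar2a value was below the lowest Prkar2b value, and replicate 3 was again lowest for both. Prkar2b was 5.82-fold below Prkaca, at a log2 difference of -2.54 (SE 0.07, limma adjusted p = 1.59e-06), and Prkar2a was 8.22-fold below, at -3.04 (SE 0.06, limma adjusted p = 4.19e-07). Prkar2a was also 1.41-fold below Prkar2b in 4 of 4 libraries, at -0.50 (SE 0.08, limma adjusted p = 0.00218), where 76.2% of all entries passed as lower and 16.5% as higher. On values multiplied back by transcript length, 4965 bases for the longest Prkar2a transcript and 3378 for Prkar2b, that difference was 0.054 and did not pass (limma adjusted p = 0.529), and Prkar2b and Prkar2a were at -1.97 and -1.92 relative to Prkaca.

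Summed by class, the regulatory messages outnumbered the catalytic ones. The ratio of regulatory to catalytic FPKM was 2.43, 2.30, 2.43 and 2.26 in replicates 1 to 4, a mean of 2.35 ± 0.0874 (SD, n = 4). It was above 1 in 4 of 4 libraries, and the exact two-sided sign-flip permutation p was 0.125, the smallest that 4 libraries allow. Type I genes made up 94.5% ± 0.194 (SD, n = 4) of the regulatory sum. The type I sum alone was 2.22 ± 0.0862 times the catalytic sum, whereas the type II sum was 0.129 ± 0.00306 times it (SD, n = 4). These ratios varied little among libraries that differed in their other tissue markers, with the regulatory share of type I between 94.3% and 94.7%. They concern messages, and protein was not measured.

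**Figure D2:**
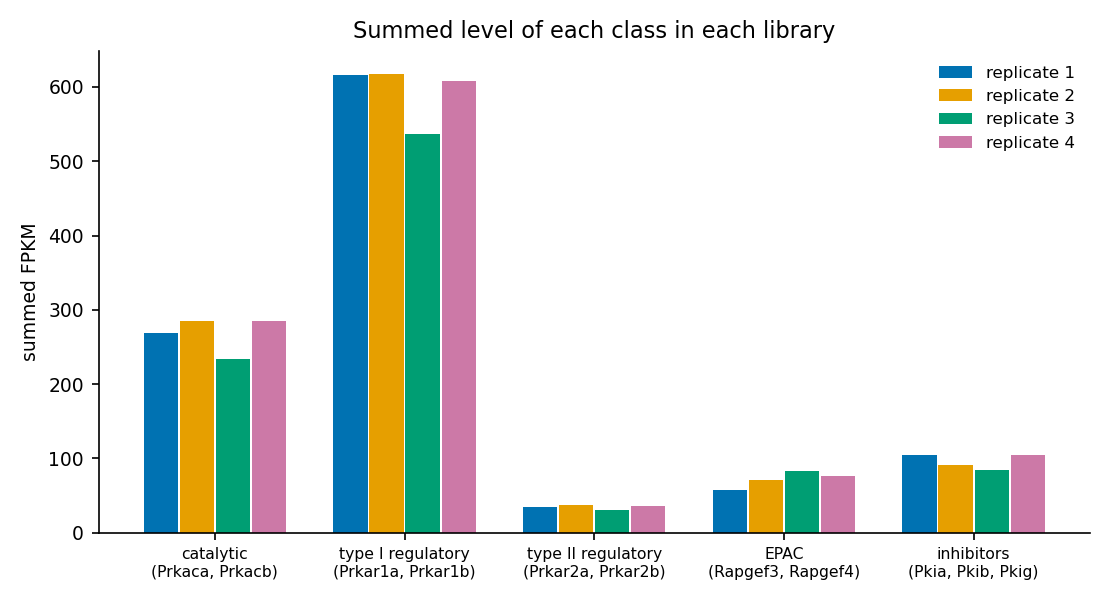
Summed FPKM (y axis, from 0) of the catalytic, type I regulatory, type II regulatory, EPAC and inhibitor genes, with 1 bar per library. The type I bars reach 537 to 618 FPKM against 233 to 285 for the catalytic genes and 30.1 to 37.7 for type II, and replicate 3 is lowest in every class except EPAC, where it is highest.

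The PKA inhibitors were unequal by more than an order of magnitude. Pkia (ENSMUSG00000027499, chromosome 3, 7366669 to 7445366, plus strand) encodes the alpha inhibitor, the classic heat-stable PKI, and lay at 67.5, 58.4, 51.5 and 67.0 FPKM. Pkib (ENSMUSG00000019876, chromosome 10, 57631981 to 57741112, plus strand) encodes the beta inhibitor and lay at 2.29, 2.12, 1.88 and 2.81 FPKM. Each was lowest in replicate 3, and no Pkib value came near a Pkia value. Pkib was 25.9-fold below Pkia in 4 of 4 libraries, a log2 difference of -4.69 (SE 0.10, limma adjusted p = 2.50e-06), where 91.7% of all entries passed as lower than Pkia and 4.87% as higher. Pkib stood at percentile 36.5 of all entries, the only member below the middle. Against Prkaca, Pkia was 1.94-fold lower at -0.96 (SE 0.09, limma adjusted p = 0.000249) and Pkib 50.3-fold lower at -5.65 (SE 0.10, limma adjusted p = 3.70e-07). The sizes of these differences rest on length correction, and without it Pkia was at -0.29 (limma adjusted p = 0.0269) and Pkib at -4.48 relative to Prkaca.

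The third inhibitor gene, Pkig, was taken from the list of other PKA genes. It lay at 35.4, 30.7, 30.6 and 34.2 FPKM, between Pkia and Pkib in every library, and passed as lower than Prkaca at -1.85 (SE 0.08, limma adjusted p = 8.82e-06). Pkia gave 63.5% ± 1.47 of the sum of the 3 inhibitor genes, and that sum was 0.359 ± 0.0297 times the catalytic sum (SD, n = 4). Prkx, an X-linked kinase related to the PKA catalytic subunits, lay at 2.79, 2.87, 2.25 and 2.41 FPKM and passed as lower than Prkaca at -5.47 (SE 0.08, limma adjusted p = 3.17e-07).

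Of the EPAC genes, Rapgef4 was the main one. Rapgef4 (ENSMUSG00000049044, chromosome 2, 71981240 to 72257474, plus strand) encodes EPAC2, the form known from neurons and endocrine cells, and lay at 48.0, 58.4, 72.8 and 65.6 FPKM. Rapgef3 (ENSMUSG00000022469, chromosome 15, 97744770 to 97767972, minus strand) encodes EPAC1, the form known from peripheral tissues and vessels, and lay at 9.56, 12.1, 10.9 and 10.8 FPKM. Replicate 1 was the lowest for both, while the highest was replicate 3 for Rapgef4 and replicate 2 for Rapgef3. Rapgef3 was 5.55-fold below Rapgef4 in 4 of 4 libraries, a log2 difference of -2.47 (SE 0.15, limma adjusted p = 4.43e-05), where 90.8% of all entries passed as lower and 4.47% as higher. Rapgef4 gave 84.8% ± 1.99 (SD, n = 4) of the EPAC sum. Antisense genes are annotated on the opposite strand within both loci, 2 in Rapgef3 and 3 in Rapgef4. No source used here states whether strand was counted, so reads of a gene and its antisense partner cannot be told apart. Among the other members, Prkar1b overlaps the annotated gene Gm15672 on the same strand over 2426 bases. Prkacb, Prkar2a and Pkia overlap pseudogenes or a small RNA gene on the opposite strand.

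Relative to the kinase, Rapgef4 was 1.95-fold below Prkaca at -0.96 (SE 0.12, limma adjusted p = 0.000719) and Rapgef3 was 10.8-fold below at -3.44 (SE 0.07, limma adjusted p = 4.62e-07). The Rapgef4 difference was -0.088 and did not pass (limma adjusted p = 0.493) on values multiplied back by transcript length, where Rapgef3 was at -2.56. The EPAC sum over the catalytic sum was 0.214, 0.247, 0.359 and 0.268 in replicates 1 to 4, so that replicate 3 held the most EPAC message per catalytic message and replicate 1 the least.

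**Figure D3:**
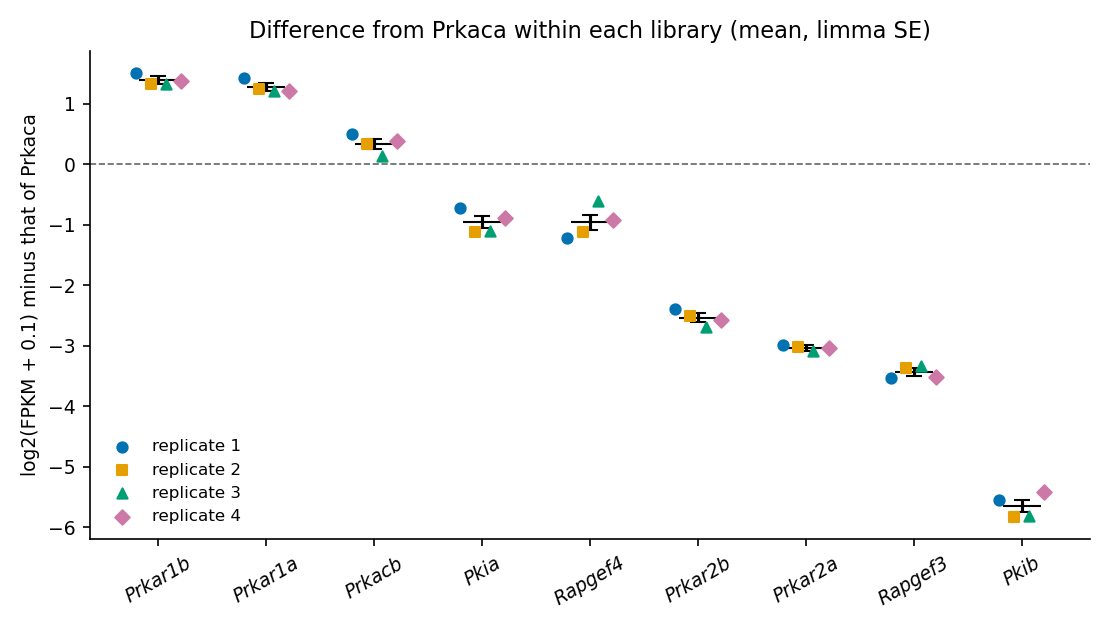
Difference of each gene from Prkaca within each library on the log2(FPKM + 0.1) scale (y axis), with 1 point per library, the mean as a bar and the standard error from limma as whiskers. Prkar1b, Prkar1a and Prkacb lie above 0 in all 4 libraries and the other 6 genes lie below 0 in all 4, and Rapgef4 spreads widest, from -1.21 in replicate 1 to -0.61 in replicate 3.

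Ordered by mean level the 10 genes ran Prkar1b, Prkar1a, Prkacb, Prkaca, Rapgef4, Pkia, Prkar2b, Prkar2a, Rapgef3 and Pkib. Of the 9 neighbouring pairs in this order, 6 had ranges over the libraries that did not overlap. Among the other 3, Prkar1b with Prkar1a and Prkacb with Prkaca kept their order in 4 of 4 libraries. Rapgef4 and Pkia did not differ beyond their spread: the log2 difference was -0.01 ± 0.40 (SD, n = 4). It was -0.49 in replicate 1 and 0.50 in replicate 3, and the genes were nearly level in replicates 2 and 4, at -0.0003 and -0.03.

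The libraries themselves differed in a shared way. All 8 PKA genes, that is every subunit and both inhibitors, had their lowest value in replicate 3, where 35.9% of all entries tested also had theirs. Their median log2 difference between replicate 3 and the mean of the other 3 libraries was -0.26, against -0.05 over all entries, and ran from -0.38 for Prkacb and -0.33 for Pkib to -0.12 for Prkaca. Rapgef4 lay the other way at 0.36 and Rapgef3 was at 0.02. For Prkaca the margin was small, at 111.2 FPKM against 111.4 in replicate 1. The low value was not particular to the 8 PKA genes. Prkx at -0.24 was also lowest in replicate 3, as was Pkig at -0.12, by 30.65 FPKM against 30.68 in replicate 2. So were the scarce cAMP-binding proteins Bves at -0.62, Popdc2 at -0.35 and Popdc3 at -0.63. After rescaling the libraries to the median of well expressed entries, or to the total without mitochondrial transcripts, 7 of the 8 were lowest in replicate 3, Prkaca being lowest in replicate 1. The median neuronal marker was -0.09 in replicate 3, the oligodendrocyte list was at 0.34 with 10 of 10 genes higher, and the thalamic list at 2.43 with 6 of 8 higher. The part of these markers in the lower PKA values was not tested, and in bulk tissue fewer cells of a type and less RNA per cell cannot be told apart.

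**Figure D4:**
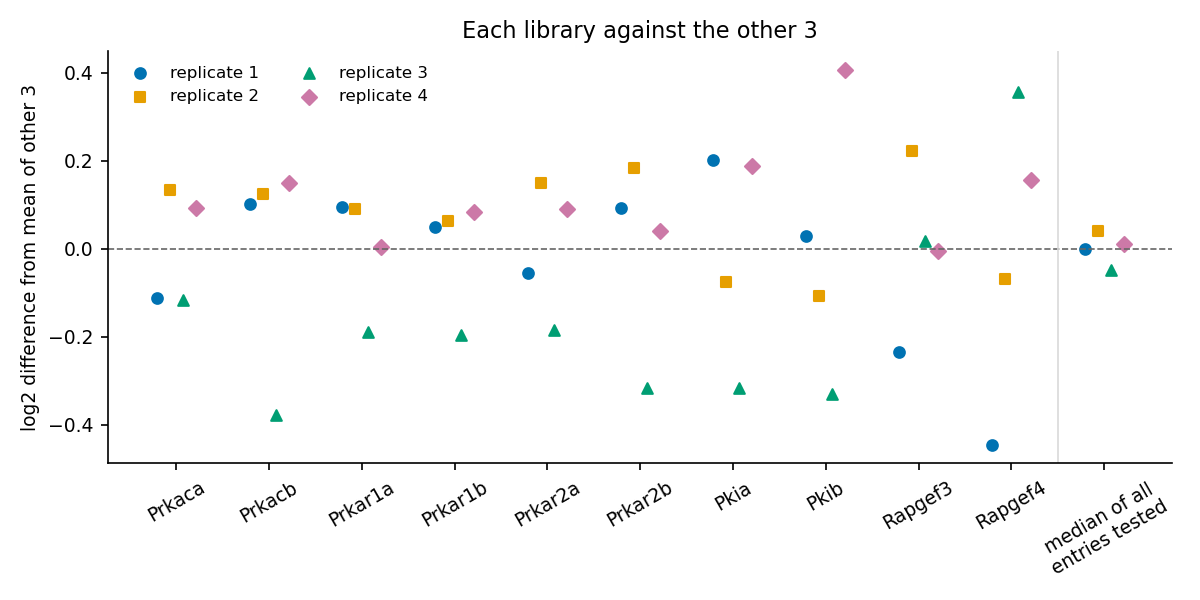
Log2 difference of each library from the mean of the other 3 (y axis) for each gene, with the median of all entries tested at the right. Replicate 3 lies below 0 for the 8 PKA genes, near 0 for Rapgef3 and at 0.36 for Rapgef4.

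Spread between libraries differed among the members. The SD of log2 levels was 0.10 for Prkaca, Prkar1a and Prkar1b and 0.11 for Prkar2a, at percentiles 24.8 to 30.7 of all entries. These 4 varied less than most entries, but all entries include many genes of lower level. No comparison with genes of like level was made. Prkacb at 0.19, Pkia at 0.18, Prkar2b at 0.16 and Rapgef3 at 0.14 stood nearer the middle, at percentiles 41.3 to 54.6. Rapgef4 had the largest SD of the 10, at 0.26 and percentile 67.1, followed by Pkib at 0.23, but this order rests on single libraries: without replicate 1 Rapgef4 was at 0.16, below Pkib at 0.28, and without replicate 4 Pkib was at 0.14. Without replicate 3 the SD was 0.018 for Prkacb, 0.013 for Prkar1b, 0.038 for Prkar1a, 0.054 for Prkar2b and 0.12 for Pkia. The other members changed less: Prkar2a was at 0.079, Prkaca at 0.099, Pkib at 0.20 and Rapgef4 at 0.23, and Rapgef3 rose to 0.17.

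Genes that act with PKA and EPAC were counted against Prkaca in lists chosen by function, with values of the 3 most abundant of each list. Of 22 A-kinase anchoring proteins, 20 passed the filter, 19 were lower than Prkaca and 0 higher. Over all entries 96.6% passed as lower and 2.32% as higher, so such counts say little about a list. The median log2 difference of the anchoring proteins was -3.70 against -4.58 over all entries. Map2, a dendritic microtubule protein that also anchors type II PKA, was the exception at 124.5, 118.5, 92.1 and 115.1 FPKM and did not differ from Prkaca by the test (-0.08, SE 0.09, limma adjusted p = 0.427, above Prkaca in 1 of 4 libraries). Wasf1, an actin regulator that binds PKA, followed at 22.4 FPKM and Akap11 at 21.4. Akap5, the postsynaptic anchor AKAP79/150, was chosen after its values were seen and lay at 1.76 ± 0.505 FPKM (SD, n = 4).

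The nuclear arm of the pathway stood near the middle of all genes. All 8 CREB family factors and coactivators were lower than Prkaca, as were 96.6% of all entries, at a median of -4.64, close to that of all entries. Crtc1, the neuronal CREB coactivator, was the highest at 14.5 FPKM, then Crem at 8.68 and Crtc2 at 6.16. Crem was at 12.4 FPKM in replicate 1 against 6.44 to 7.97 elsewhere. The 5 phosphatase inhibitors and related phosphoproteins that PKA acts on were all lower, at a median of -2.54, with Ensa at 60.5 FPKM, Arpp19 at 22.3 and Arpp21 at 20.5.

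On the EPAC side, all 19 RAP GTPases and regulators were lower than Prkaca, as were 96.6% of all entries, at a median of -3.39. Rap1gap, which switches RAP1 off, led at 70.0 FPKM, above the targets Rap1a at 31.6 and Rap1b at 27.9. Rap1gap was at 57.8, 72.6, 84.1 and 65.4 FPKM, lowest in replicate 1 and highest in replicate 3 as Rapgef4 was. Over all entries tested 28.5% were lowest in replicate 1 and 22.5% highest in replicate 3, so this likeness says little. The summed oligodendrocyte markers were lowest and highest in the same libraries, at 5923, 6826, 8571 and 7961 FPKM in replicates 1 to 4, and their part in either gene was not tested. The other cAMP-binding proteins Popdc3, Bves and Popdc2 were scarce at 0.989, 0.401 and 0.350 FPKM. Among 18 other signalling kinases, 18 passed as lower than Prkaca and 0 as higher, at a median of -2.19, with 17 passing as lower without replicate 1 and 16 without replicate 2 or replicate 4. Prkcd, chosen after its values were seen, passed at -2.97 (SE 1.01, limma adjusted p = 0.0362) although at 172 FPKM it was above Prkaca in replicate 3, the library with the highest thalamic sum. Mapk3, the kinase ERK1, came closest at -0.23 (SE 0.06, limma adjusted p = 0.0129) and 101 FPKM, then Camk2b at 95.0 and Camk2g at 69.6. On values multiplied back by transcript length 14 of these kinases passed as lower and 2 as higher, and 1 anchoring protein passed as higher.

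**Figure D5:**
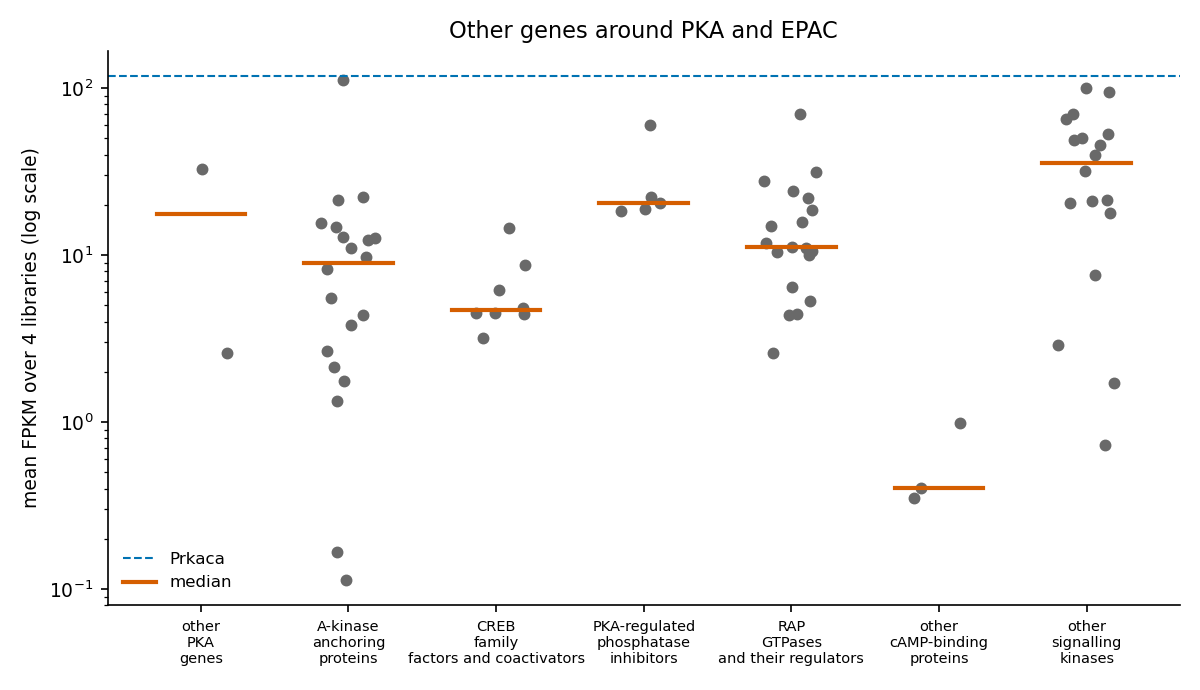
Mean FPKM over the 4 libraries on a log scale (y axis) for each gene of the 7 lists (x axis) that passed the filter on low values. The median of these genes in each list is an orange line and Prkaca a dashed line. Every point lies below the Prkaca line, and Map2 at 113 FPKM and Mapk3 at 101 FPKM come nearest to it.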

How the data were processed

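RNA of 4 naive brain samples was extracted with TRIzol and made into mRNA libraries for Illumina sequencing, per the labels. The deposited values were read as FPKM, because they are not whole, their totals differ and low values step with transcript length. Neither labels nor headers name the unit. The genome was GRCm38 per the submitters' processing notes. Aligner, quantifier, annotation and use of strand: not given in the sources used here. Between 17.7% and 25.7% of low values lay within 0.05 of a whole step, so no counts were recovered, and only relative depth is given. The third library's column is headed with a letter and was placed by its sample's title. No label says that replicates are separate animals, so how much of the spread behind a p-value is technical is not known.

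GENCODE M21 gave symbols, positions and lengths for 22022 of 22036 Ensembl identifiers, and 3008 loci have none. Within each library, log2(FPKM + 0.1) of a reference gene was subtracted from that of each of the other 17629 entries with a mean of 0.1 or more. This scale understates differences of low genes. The differences were tested against 0 with limma 3.58.1 functions in R 4.3.3, two-sided, Benjamini-Hochberg adjusted over all entries, threshold 0.05. The prior degrees of freedom were limited to 1.63, those of the genes' own levels. The references were Prkaca, Prkar1b, Prkar2b, Pkia and Rapgef4. On simulated data 92.6% of genes set 0.5 log2 units from Prkaca and 11.8% of those set 0.5 from Rapgef4 were called. Of genes set 0 from the reference, 0.25% for Prkaca and 0% for Rapgef4 had an unadjusted limma p under 0.05. How far these shares vary between repeats of the simulation was not tested.

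The members and lists were chosen with earlier results of these data known. Named are the 10 members, Pkig and Prkx, and the 3 most abundant genes of every other pathway list. Other pseudocounts, filters and priors, values without length correction, and leaving out each library were tried. Values without length correction are those multiplied by the longest annotated transcript of each gene, which may differ from the length behind the deposited values. Python 3.11.15, pandas 2.3.3, numpy 2.4.6 and matplotlib 3.10.9 were used.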

Additional observations from a re-analysis of the deposited data

Results flagged for a closer look

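Of 42 values examined (levels of the named genes, ratios and shares), Dixon's test set 1 library apart in 3, and chance alone sets one apart in about 5%. All 3 concern replicate 3. Prkacb was at 122 FPKM there against 157 to 161 elsewhere, and Prkar1b at 279 FPKM against 317 to 322. Rescaling the libraries, a choice made after seeing the data, gave mixed results for Prkar1b. It no longer stood apart after rescaling to the median of well expressed entries, its gap being 0.754 of its range. It still stood apart after rescaling to the total without mitochondrial transcripts, with a gap of 0.869. Prkacb stood apart after either rescaling, with gaps of 0.860 and 0.898 in the same order. The share of Pkia among Pkia, Pkib and Pkig was 61.3% against 64.0% to 64.4%. The values share a library and are not independent.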

How the results depend on the processing

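The 13 pairwise differences kept their direction and side of the threshold in 137 of 143 alternatives. Without replicates in turn, Prkacb relative to Prkaca lay between 0.28 and 0.40 and missed the threshold without replicate 4. Prkar1a relative to Prkar1b passed, at -0.11, with no filter on level and with no prior. Without length correction it reversed to 0.30, Prkar2a relative to Prkar2b reversed to 0.054 and Rapgef4 relative to Prkaca no longer passed at -0.088. The same values put Prkacb above Prkaca by 1.27, and the share of Prkaca among catalytic subunits moved to 29.4% and that of type I among regulatory subunits to 92.9%. The numbers passing as higher than Prkaca became 1 for anchoring proteins and 2 for other signalling kinases. With genes of a mean of 1 or more, 0 other cAMP-binding proteins were left to pass as lower, since none reached that level. The 2 rescalings of the libraries were chosen after seeing the data. Depth is known only in relative terms, so counting error at the level of Pkib could not be given. No paired analysis was possible because the samples form 1 group, and no groups share replicate numbers. The differences between genes are themselves taken within libraries.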
